A study of Cricetulus griseus with 24 samples.

Results

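The LRRC8 genes Lrrc8a, Lrrc8b, Lrrc8c and Lrrc8d encode subunits of the volume-regulated anion channel, and they were read out of the count tables by gene name as 4 of 26776 genes. LRRC8 proteins assemble as hexamers in the plasma membrane and release chloride and small organic solutes when a cell swells. LRRC8A is the obligatory subunit, without which the channel does not work, and its partners LRRC8B to LRRC8E set what passes through the pore. LRRC8D favours organic osmolytes such as taurine and some drugs, LRRC8C and LRRC8E have been tied to passage of the signalling molecule cyclic GMP-AMP, and the family is distantly related in sequence to the pannexins. The remaining family gene, Lrrc8e, was not among the 4 and is given beside them for comparison.

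RNA was counted in 24 libraries of LR73, a hamster fibroblast-like line that engulfs dying cells, in 6 groups of 4 biological replicates. The first experiment had untreated phagocytes, phagocytes given cytochalasin D (a drug that stops actin filaments from growing and blocks engulfment), phagocytes given apoptotic cells, and phagocytes given both. The second had wildtype and Slc12a2-deficient phagocytes, both given apoptotic cells for 2 h and both sorted for the acid-activated dye CypHer5E, so that its libraries are of engulfing cells and it has no group without apoptotic cells. The apoptotic targets came from the human T lymphocyte line Jurkat, exposed to 1500 mJ of ultraviolet C light and kept for 4 h. Slc12a2 encodes NKCC1, a cotransporter that carries sodium, potassium and chloride into the cell. The sources used here do not say how it was removed or whether the deficient line is a single clone, so a difference between these 2 lines cannot be told apart from a difference between clones.

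The 16 libraries of the first experiment held 8272232 to 18911353 counted fragments each, and the 8 of the second held 22758587 to 28450594. Slc12a2 was at 96.8 ± 5.41 CPM (counts relative to the TMM-scaled library size; SD, n = 4) in wildtype and 24.7 ± 1.59 in deficient libraries, so its transcript was reduced and not absent. Of fibroblast markers, Vim, Fn1, Sparc and S100a4 were high (4334, 1027, 371.8 and 101.9 CPM in untreated cells), while Col1a1, Col1a2 and Thy1 were at or under 0.138 CPM in every group mean. The summed level of 20 T cell genes was 35.3 to 38.2 ppm of counts in untreated libraries, 34.2 to 40.6 with cytochalasin D, 43.8 to 46.7 with apoptotic cells and 43.3 to 48.0 with both. In the second experiment it was 36.1 to 38.3 in wildtype and 23.4 to 28.5 in deficient libraries. Tcf7 and Lat carried most of this sum in untreated cells, which held no T cell targets, at 23.7 and 11.0 CPM. They stood at 23.0 and 11.1 CPM with apoptotic cells, so the sum is not a measure of T cell content. Lck rose from 0.026 to 3.2 CPM with apoptotic cells in the first experiment and stood at 0.059 and 0.050 CPM in the sorted groups, and Cd3g, Cd2 and Cd5 had no count in any library. Of the T cell genes 7 passed the filter, and 3 of them were higher and none lower with apoptotic cells. In that comparison 13.7% of all genes tested were called in either direction. Those 3, Lck, Zap70 and Lef1, had means at or under 0.026 CPM in the first experiment's groups without apoptotic cells. They passed the filter only through the groups given apoptotic cells, so this count is not a test. Of 8 fibroblast genes tested 2 were lower and none higher with cytochalasin D, and of 2 myeloid genes tested 1 was higher (Cd68), where 26.3% of all genes were called. The summed level of 9 myeloid genes was 1.34 to 2.41 ppm in untreated libraries, 2.35 to 4.12 with cytochalasin D, 1.56 to 3.27 with apoptotic cells and 2.29 to 4.07 with both. Cd68 led it, with group means of 0.840 to 2.25 CPM over both experiments, and Itgam and Mrc1 had no count in untreated libraries or with cytochalasin D alone. Whether RNA of the human target cells adds to the LRRC8 counts was not tested.

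In the coordinates of the count tables, whose genome build the sources used here do not name, 3 of the 4 genes share one scaffold. Lrrc8b (NW_003614236.1, bases 33379 to 93697), Lrrc8c (bases 129247 to 209126) and Lrrc8d (bases 326230 to 401066) follow each other on the plus strand, 35549 and 117103 bases apart. Lrrc8a lies alone on the minus strand of another scaffold (NW_003616251.1, bases 56048 to 81456), and Lrrc8e lies on yet another (NW_003614218.1, bases 794174 to 806697, minus strand). No exon of any other gene overlapped the exons of these 5 genes. Summed exon lengths were 3354 bases for Lrrc8a, 4057 for Lrrc8b, 7238 for Lrrc8c and 3573 for Lrrc8d, so raw counts overstate Lrrc8c against the others. Levels of the LRRC8 genes are compared with each other below after division by exon length, except where raw counts or shares of raw counts are named.

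Levels in the family were far apart. Per exon length, in TPM (counts divided by exon length and by the sum of these values over all genes) of untreated libraries, Lrrc8d was the most abundant at 46.4 ± 1.33 (SD, n = 4). Lrrc8a at 18.6 ± 0.971 TPM and Lrrc8c at 17.5 ± 0.939 TPM came next, with ranges over the libraries (17.7 to 20.02 and 16.4 to 18.3 TPM) that overlap. Lrrc8e followed at 9.21 ± 0.701 TPM, and Lrrc8b was at 0.0186 ± 0.0245 TPM. The order of Lrrc8d, then Lrrc8a with Lrrc8c, then Lrrc8e, then Lrrc8b described untreated cells and cells given apoptotic cells alone. With cytochalasin D, Lrrc8a (22.7 to 27.0 TPM) lay above Lrrc8c (14.8 to 19.7 TPM) in every library, and so it did with both treatments (23.6 to 26.8 against 17.4 to 18.4 TPM).

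The second experiment had another order. In sorted wildtype cells Lrrc8d was at 49.4 ± 2.67 TPM, Lrrc8c at 34.5 ± 1.12, Lrrc8a at 18.7 ± 1.22 and Lrrc8e at 5.83 ± 0.334 (SD, n = 4 each), and none of these ranges overlapped. The ratio of Lrrc8c to Lrrc8d per length within a library needs no scaling between libraries. It was 0.356 to 0.496 in the unsorted cells given apoptotic cells and 0.679 to 0.727 in the sorted wildtype cells. The 2 experiments differ in sorting and in sequencing, and were normalised separately, so these values are set side by side without a test.

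Lrrc8b, whose product is a partner subunit, was close to undetected. It had 20 counts in all over the 16 libraries of the first experiment, with 7 libraries at 0 and a highest count of 4. In the second it had 20 counts over 8 libraries, with 1 library at 0 and a highest count of 5. Pooled over libraries this is 0.0867 CPM in the first experiment (95% exact Poisson interval 0.0530 to 0.134) and 0.0990 CPM in the second (0.0605 to 0.153), intervals that cover counting error only. Pooled by group, Lrrc8b ran from 0.0505 CPM in untreated cells (3 counts, interval 0.0104 to 0.148) to 0.158 CPM with cytochalasin D (9 counts, 0.0721 to 0.300), and those intervals overlap. Lrrc8b did not pass the filter on low counts, so 3 of the 4 genes were tested. Its neighbours Lrrc8c and Lrrc8d had 645 to 3547 counts in the same libraries, and a difference in Lrrc8b between groups was not detectable at this depth.

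**Figure D1:**
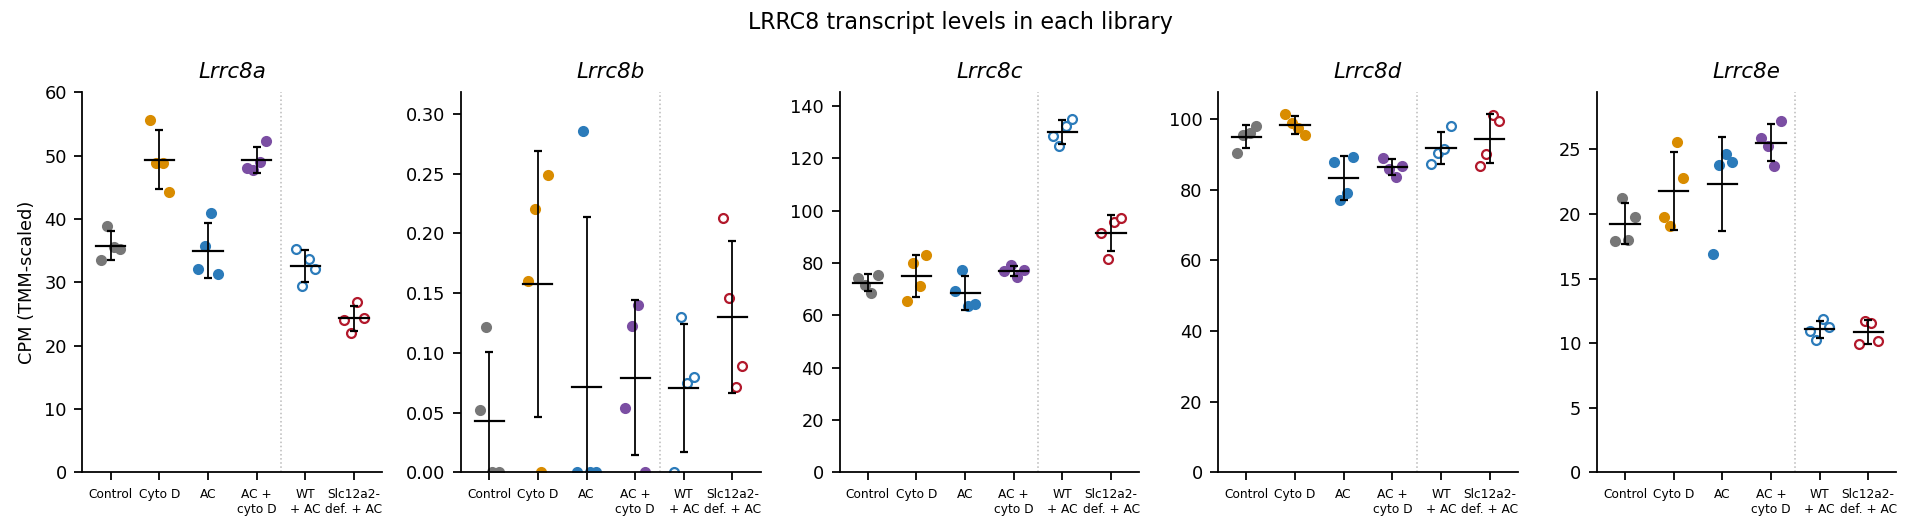
Level of each LRRC8 gene in each library, in TMM-scaled CPM (linear axis from 0, a scale of its own per gene), for the 4 groups of the first experiment (filled points) and the 2 groups of the second (open points, right of the dotted line). Cyto D is cytochalasin D, AC apoptotic cells and WT wildtype; bars are the mean and SD of 4 libraries, with lower ends clipped at 0 for Lrrc8b. Lrrc8a is raised in both cytochalasin D groups, Lrrc8d is lower in both apoptotic cell groups, Lrrc8a and Lrrc8c are lower in Slc12a2-deficient cells, and Lrrc8b stays under 0.3 CPM.

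Cytochalasin D raised Lrrc8a, the obligatory subunit. Lrrc8a was at 33.5, 38.9, 35.5 and 35.3 CPM in the untreated libraries and at 55.6, 48.9, 48.8 and 44.3 CPM with the drug. Every treated library was above every untreated one, as for 12.8% of all genes tested. The rise was 1.38-fold (log2 0.46 ± 0.081 SE; adjusted p = 0.000138, edgeR quasi-likelihood F test with Benjamini-Hochberg adjustment over all 13106 genes). It was the only one of the 3 tested genes to be called higher, where 13.5% of all genes tested were. Neither partner gene passed the test.

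Lrrc8c was at 74.5, 71.5, 68.4 and 75.6 CPM without the drug and at 65.5, 80.0, 71.2 and 82.9 CPM with it, which overlap (log2 0.049, 95% interval -0.094 to 0.19, adjusted p = 0.666 in edgeR). For Lrrc8d the values were 90.3, 95.4, 96.2 and 97.98 CPM against 101.3, 98.9, 97.5 and 95.4 CPM (log2 0.050, interval -0.054 to 0.15, adjusted p = 0.523 in edgeR). The upper bounds of these intervals lie below the lower bound for Lrrc8a, 0.29, on the same log2 scale. Differences between genes were not themselves tested.

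The same comparison could be made in phagocytes that had also been given apoptotic cells, with no library in common with the first. Lrrc8a was at 32.1, 35.8, 40.9 and 31.3 CPM with apoptotic cells alone and at 48.1, 47.7, 49.0 and 52.4 CPM with cytochalasin D added. The groups did not overlap, which held upward for 16.4% of all genes, and the rise was 1.41-fold (log2 0.49 ± 0.082 SE, adjusted p = 5.97e-05 in edgeR). Again 1 of the 3 tested genes was called higher, where 16.4% of all genes were. Lrrc8c was at 69.2, 77.2, 63.5 and 64.3 CPM without and 77.1, 79.1, 74.5 and 77.3 CPM with the drug, a difference of log2 0.17 ± 0.070 SE that missed the threshold (adjusted p = 0.0669 in edgeR). Without replicate 2 of the cells given apoptotic cells alone, at 77.2 CPM the highest of its group, Lrrc8c would be called higher (log2 0.23, adjusted p = 0.0153). Lrrc8d did not pass the test (log2 0.053, interval -0.053 to 0.16, adjusted p = 0.474).

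Averaged over both settings, a contrast chosen after the values were seen, cytochalasin D raised Lrrc8a by log2 0.48 ± 0.058 SE (adjusted p = 4.73e-07 in edgeR), 1 of 3 genes called higher beside 19.3% of all genes. Lrrc8c was at log2 0.11 ± 0.049 SE with adjusted p = 0.0840, and without replicate 1 of cytochalasin D or replicate 2 of apoptotic cells it would be called (log2 0.13 and 0.14, adjusted p = 0.0273 and 0.0274). Other single libraries left out took its adjusted p as high as 0.224 in edgeR. Removal of the trend with gene length put it at log2 0.062 (adjusted p = 0.286 in edgeR). With the drug the summed level of 11 fibroblast genes was lower, at 4487 to 5039 ppm of counts against 5764 to 6221 ppm in untreated libraries. Vim carried most of that sum. The part of this shift in the Lrrc8a result was not tested. In libraries of a whole culture, fewer cells of a kind and less RNA per cell cannot be told apart.

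Apoptotic cells lowered Lrrc8d, the osmolyte-passing partner, by a small amount. Lrrc8d was at 90.3, 95.4, 96.2 and 97.98 CPM in untreated libraries and at 88.0, 77.0, 79.2 and 89.1 CPM with apoptotic cells. The groups did not overlap, as for 8.97% of all genes in this direction, and the lowest untreated library was close to the highest treated one. Lrrc8d was 1.14-fold lower (log2 -0.19 ± 0.050 SE, 95% interval -0.29 to -0.083, adjusted p = 0.0155 in edgeR). It was the only 1 of the 3 genes tested to be called lower, where 6.68% of all genes were. The call was lost without replicate 2 of the treated group (log2 -0.15, adjusted p = 0.05123) or without replicate 3 (log2 -0.16, adjusted p = 0.0643).

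The comparison with cytochalasin D in both groups gave the same size. It has no library in common with the one above but comes from the same experiment and fit. Lrrc8d was at 101.3, 98.9, 97.5 and 95.4 CPM with the drug alone and at 89.1, 85.9, 83.7 and 86.7 CPM with apoptotic cells added. These groups did not overlap either, as for 6.68% of all genes in this direction, and Lrrc8d was 1.14-fold lower (log2 -0.19 ± 0.051 SE, interval -0.29 to -0.080, adjusted p = 0.0230 in edgeR), 1 of 3 genes called lower beside 3.79% of all genes. The call was lost without replicate 1, 2 or 3 of the drug alone (adjusted p = 0.0662, 0.0594 and 0.05009) and without replicate 3 or 4 of both treatments (0.0840 and 0.0563), with log2 changes from -0.17 to -0.19.

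Averaged over both settings, the contrast chosen after the values were seen, Lrrc8d was lower by log2 -0.19 ± 0.036 SE (adjusted p = 0.000813 in edgeR), 1 of 3 genes called lower beside 6.82% of all genes. That call held with each of the 16 libraries left out, at adjusted p from 0.000482 to 0.00291. The rise of T cell transcripts given above ran in the same libraries as the lower Lrrc8d. The T cell sum had means of 37.0 ppm in untreated libraries and 45.2 ppm with apoptotic cells, where Lrrc8d had means of 94.97 and 83.3 CPM, and its part in the result was not tested. The fibroblast gene sum was also higher with apoptotic cells alone, at 6878 to 7259 ppm against 5764 to 6221 ppm in untreated libraries. With cytochalasin D present the ranges overlapped (4476 to 4927 against 4487 to 5039 ppm). The part of the fibroblast sum was not tested either.

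Lrrc8a and Lrrc8c were not called in either of these comparisons. With apoptotic cells alone Lrrc8a differed by log2 -0.030 (interval -0.20 to 0.14, adjusted p = 0.853 in edgeR) and Lrrc8c by -0.083 (interval -0.23 to 0.060, adjusted p = 0.473). With cytochalasin D present Lrrc8a differed by log2 -3e-04 (interval -0.17 to 0.17, adjusted p = 0.999) and Lrrc8c by 0.037 (interval -0.11 to 0.18, adjusted p = 0.810). Lrrc8e, outside the 4, was higher in the means of both comparisons without passing the test. Its log2 changes were 0.22 ± 0.11 SE (adjusted p = 0.196) and 0.23 ± 0.11 SE (adjusted p = 0.232).

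Whether blocking engulfment changed the response of a subunit to apoptotic cells was tested as the difference between both effects of apoptotic cells. None of the 3 genes was called, where 4.56% of all genes were, and none had an unadjusted p under 0.05 in edgeR. DESeq2 and limma-voom called none of them either. The difference was log2 0.030 for Lrrc8a (interval -0.21 to 0.27, adjusted p = 0.910), 0.12 for Lrrc8c (interval -0.083 to 0.32, adjusted p = 0.510) and 0.0024 for Lrrc8d (interval -0.15 to 0.15, adjusted p = 0.991). For Lrrc8d the interval reaches almost to the size of the effect itself, so a partial loss of the response is within it.

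**Figure D2:**
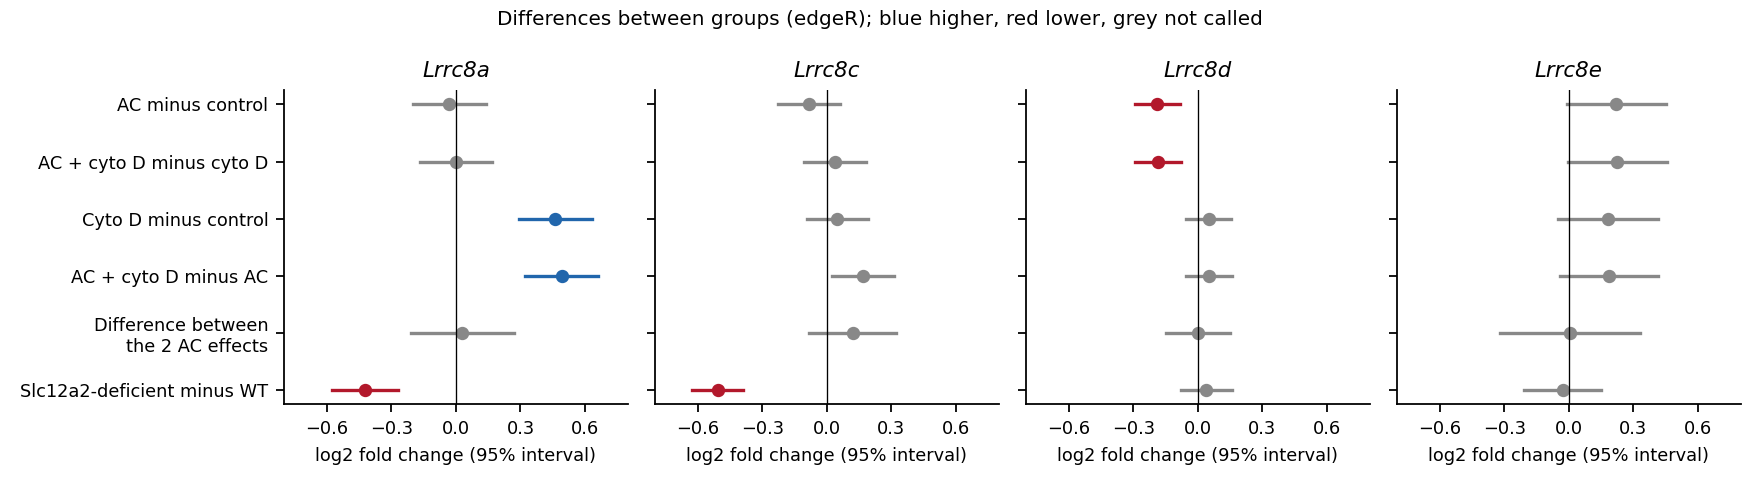
Differences between groups for the 4 LRRC8 genes that passed the low count filter, as log2 fold change (x axis) with its 95% interval from edgeR, one row per comparison; blue is called higher, red lower and grey not called. Lrrc8a is higher in both cytochalasin D comparisons (0.46 and 0.49), Lrrc8d lower in both apoptotic cell comparisons (-0.19 each), and Lrrc8a and Lrrc8c lower in Slc12a2-deficient cells (-0.42 and -0.51).

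In phagocytes deficient in Slc12a2, 2 subunit transcripts were lower and the most abundant was not. Lrrc8c, a partner subunit, was at 128.5, 124.7, 132.5 and 134.9 CPM in wildtype and at 91.6, 81.7, 95.7 and 97.1 CPM in deficient libraries. Every deficient library was below the lowest wildtype one, as for 20.4% of all genes. Lrrc8c was 1.42-fold lower (log2 -0.51 ± 0.055 SE, adjusted p = 2.17e-06, edgeR over 13050 genes).

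Lrrc8a was at 35.3, 29.4, 33.8 and 32.1 CPM in wildtype and at 24.03, 22.01, 26.9 and 24.4 CPM in deficient libraries. These groups did not overlap either, and Lrrc8a was 1.34-fold lower (log2 -0.42 ± 0.073 SE, adjusted p = 0.000232 in edgeR). So 2 of the 3 genes tested were called lower, in a comparison where 21.3% of all genes were called lower and 42.5% were called in either direction. Lrrc8d was at 87.3, 90.5, 91.4 and 98.1 CPM in wildtype and at 86.8, 90.2, 101.1 and 99.5 CPM in deficient libraries (log2 0.040, interval -0.080 to 0.16, adjusted p = 0.605). That interval does not reach the interval of Lrrc8a (-0.58 to -0.27) or of Lrrc8c (-0.63 to -0.39). Lrrc8e did not pass the test (log2 -0.029, interval -0.21 to 0.15, adjusted p = 0.816).

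The lower Lrrc8a and Lrrc8c calls held with each of the 8 libraries left out, at log2 -0.47 to -0.38 and -0.53 to -0.46. In these libraries 7 of the 8 fibroblast markers tested were also lower, where 21.3% of all genes were, with Fn1 at 1248 CPM in wildtype and 653.8 CPM in deficient cells and Pdgfrb at 6.71 and 1.38 CPM, while Vim was higher. Col3a1, among the 7, had means of 1.57 CPM in wildtype and 0.272 CPM in deficient libraries. It passed the filter only through the wildtype group, so its call is not a test. The T cell gene sum was lower in the deficient group too, with Lck, Zap70 and Cd3e near or at 0 in both. Lower in the means were Il7r (6.02 CPM in wildtype, 0.15 in deficient), Lat (10.8 and 4.66) and Cd28 (3.92 and 1.36). Tcf7 went the other way (16.1 and 18.5 CPM). What part these shifts have in the LRRC8 result was not tested. Both Lrrc8b groups were near 0, at 7 counts in wildtype and 13 in deficient libraries.

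**Figure D3:**
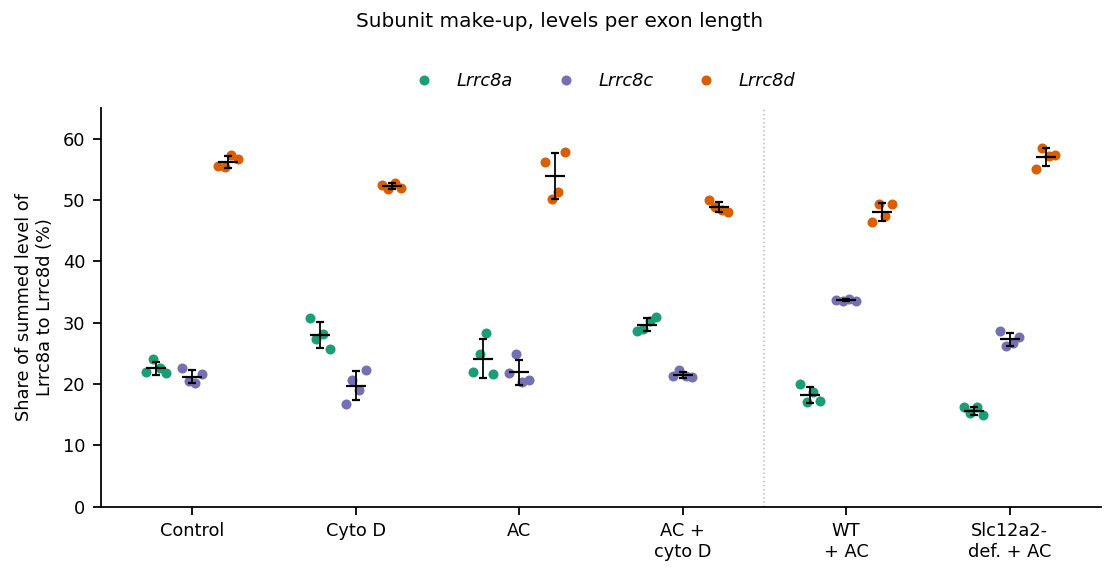
Share of Lrrc8a, Lrrc8c and Lrrc8d (percent, y axis) in the summed level per exon length of Lrrc8a to Lrrc8d, in each library of the 6 groups, with the mean and SD of 4 libraries; Lrrc8b is under 1% and not drawn. Lrrc8d makes up 48.1 to 57.0% of the sum in the group means, and the share of Lrrc8a is 22.6% in untreated cells, 28.0% with cytochalasin D and 15.7% in Slc12a2-deficient cells.

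These changes altered the make-up of the subunit transcripts, described here without a test because the shares of one library sum to 100%. In untreated cells Lrrc8a held 22.6 ± 1.04% of the summed level per length of the 4 genes, Lrrc8c 21.2 ± 1.10% and Lrrc8d 56.2 ± 0.938% (SD, n = 4). With cytochalasin D Lrrc8a held 25.7 to 30.7% in each library, above the 21.8 to 24.1% of untreated libraries, and Lrrc8d 51.9 to 52.8% against 55.4 to 57.3%. With both treatments Lrrc8d held 47.99 to 49.9% and Lrrc8a 28.7 to 30.9%. With apoptotic cells alone the libraries were spread, Lrrc8a at 21.6 to 28.3% and Lrrc8d at 50.2 to 57.8%, past the untreated range.

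The ratio of Lrrc8a to Lrrc8d per length was set side by side over both experiments, which differ in sorting and sequencing, without a test. Its mean was 0.275 in Slc12a2-deficient cells, 0.380 in sorted wildtype cells, 0.402 in untreated cells, 0.452 with apoptotic cells, 0.535 with cytochalasin D and 0.609 with both. Sorted wildtype (0.346 to 0.431), untreated (0.384 to 0.434) and apoptotic cell libraries (0.374 to 0.551) overlap each other, and so do the apoptotic cell and the cytochalasin D libraries (0.495 to 0.584). The cytochalasin D libraries overlap those with both treatments (0.575 to 0.643) as well. The deficient libraries (0.260 to 0.295) stood below all others, of which only the sorted wildtype libraries come from the same experiment. Summed over the 4 genes the level was 82.6 ± 1.81 TPM in untreated cells, 87.9 ± 0.971 with cytochalasin D, 73.1 ± 1.52 with apoptotic cells, 83.4 ± 2.25 with both, 102.6 ± 3.40 in sorted wildtype and 86.8 ± 6.15 in deficient cells (SD, n = 4 each).

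Correlations between the subunit genes were weak to moderate from library to library. Over the 16 libraries of the first experiment, which share the group differences above, Pearson's r of log2 CPM was 0.30 between Lrrc8a and Lrrc8c, 0.19 between Lrrc8a and Lrrc8d and 0.023 between Lrrc8c and Lrrc8d, although the last 2 genes are neighbours. Lrrc8e was at 0.47 with Lrrc8a, 0.17 with Lrrc8c and -0.44 with Lrrc8d. The genes most like Lrrc8a among 8920 were Vegfa (0.95), Tagln2 (0.95) and Mapkbp1 (0.95). In the second experiment, which was not used to choose them, Vegfa and Mapkbp1 were also lower in deficient cells (log2 -0.54 and -0.52, adjusted p = 1.27e-06 and 0.000613 in edgeR). Tagln2 was not called (log2 -0.034, adjusted p = 0.575). In that comparison 21.3% of all genes were called lower and 42.5% in either direction. The genes most like Lrrc8c were Kiaa1429 (0.88), Mastl (0.87) and Eea1 (0.85), none of which was called between the genotypes (log2 -0.041, 0.13 and 0.025, adjusted p = 0.610, 0.0796 and 0.758). The genes most like Lrrc8d were Yars (0.89), Rbm33 (0.89) and Top3a (0.88), again with none called between the genotypes (log2 0.035, -0.089 and 0.060, adjusted p = 0.588, 0.219 and 0.352).

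Genes next to the family were read for comparison, in the gene order of the RefSeq annotation CriGri-PICRH-1.0. Znf326, the gene after Lrrc8d, was higher in deficient cells (log2 0.30, adjusted p = 8.84e-05 in edgeR), where Lrrc8c was lower and Lrrc8d was not called. Cytochalasin D lowered Znf326 without and with apoptotic cells (log2 -0.18 and -0.27, adjusted p = 0.0485 and 0.00254 in edgeR), where Lrrc8d was not called. In these 3 comparisons 42.5, 26.3 and 32.5% of all genes were called. Dolk, a dolichol kinase gene near Lrrc8a, was lower in deficient cells (log2 -0.71, adjusted p = 1.47e-06) as Lrrc8a was. It did not pass the test under cytochalasin D (log2 0.089, adjusted p = 0.612), where Lrrc8a rose. Ccbl1, on the same stretch, passed the test in none of the 6 comparisons.

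Of 18 other chloride and anion channel genes tested, 7 rose and 1 fell with cytochalasin D, where 26.3% of all genes were called in either direction (median log2 0.027, against 0.0088 over all genes). Ttyh2, of the tweety family, rose 2.39-fold from 30.7 to 73.4 CPM, and Clcn7, a lysosomal chloride-proton exchanger, rose 1.57-fold (adjusted p = 1.81e-12 and 4.46e-08 in edgeR). Clcn6 rose 1.45-fold and Clic1 1.23-fold. In the alternatives run 6 to 8 rose and 0 to 2 fell. With apoptotic cells alone 1 was called higher (Ano8, log2 0.35) and 1 lower (Clic4, log2 -0.15), where 13.7% of all genes were called (median over the 18 genes -0.053). Both calls were lost without single libraries, among them control replicate 1 (adjusted p = 0.0995 and 0.112) and replicate 3 of apoptotic cells (0.0976 and 0.101).

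With cytochalasin D present none of the 18 rose and 3 fell with apoptotic cells, where 8.61% of all genes were called (median -0.054). Ttyh2 and the pannexin gene Panx1, a channel relative of the LRRC8 family, were lower by log2 -0.44 and -0.29, and Clcn7 by -0.23, a call lost without any 1 of 5 libraries, such as cytochalasin D replicate 3 (adjusted p = 0.106). Between both treatments and apoptotic cells alone 7 were higher and 3 lower, where 32.5% of all genes were called. In deficient cells 4 of the 18 were higher and 4 lower, where 42.5% of all genes were called (median -0.060; 3 to 4 and 3 to 5 in the alternatives run). Among the lower ones were Ttyh3, Clic4 and Panx1 (log2 -0.42, -0.37 and -0.30), and Clcn3 was higher (log2 0.21).

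**Figure D4:**
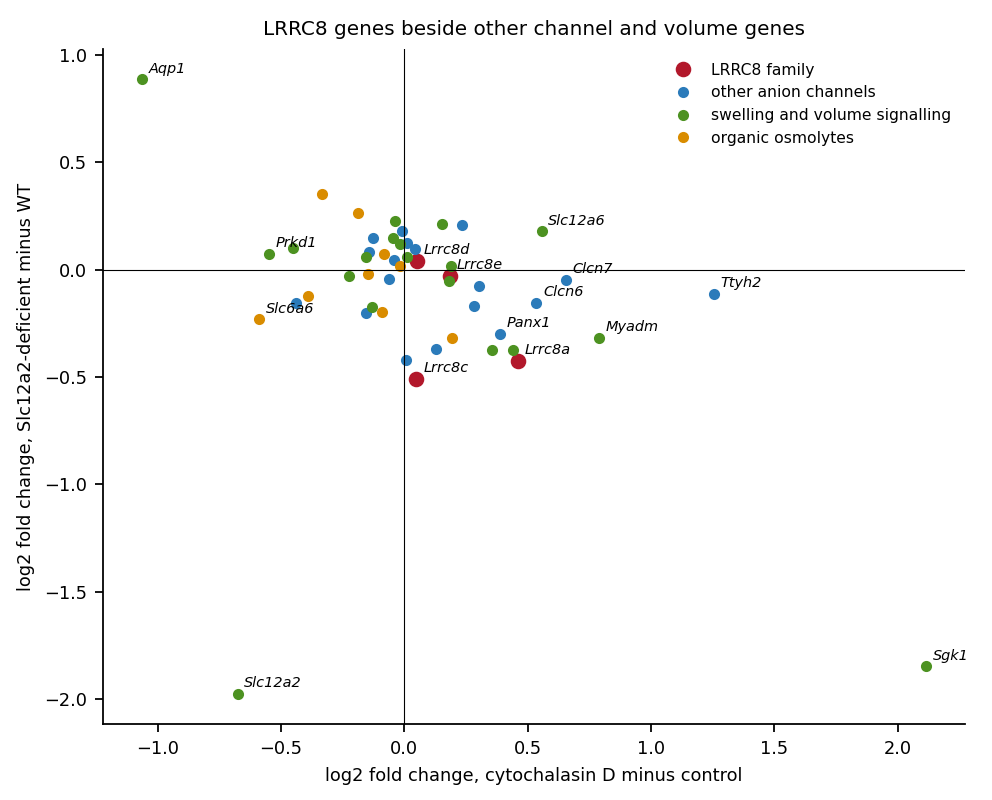
Log2 fold change with cytochalasin D (x axis) against log2 fold change in Slc12a2-deficient cells (y axis) for genes tested in both experiments: LRRC8 genes (large red points), other anion channels, swelling and volume signalling genes, and organic osmolyte genes. Lrrc8a lies at 0.46 and -0.42, and Sgk1, which moved in the same directions, lies at 2.12 and -1.85.

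Genes of swelling and volume signalling (ion cotransporters, their kinases, aquaporin and swelling-sensitive cation channels; 19 tested) moved in both directions. With cytochalasin D 5 rose and 4 fell, where 26.3% of all genes were called (median log2 -0.018; 3 to 5 and 4 to 5 in the alternatives run). Sgk1, a kinase gene induced by cell volume change and hormones, rose from 17.7 to 76.8 CPM and Myadm rose 1.73-fold, while the water channel gene Aqp1 fell from 112.6 to 53.9 CPM and Prkd1 fell 1.46-fold. Slc12a2 fell 1.598-fold with cytochalasin D, from 49.75 to 31.03 CPM (adjusted p = 1.53e-05 in edgeR). With apoptotic cells alone Sgk1 (log2 1.45) and Aqp1 (log2 0.55) rose and Oxsr1, a kinase gene of the chloride cotransporter pathway, fell (log2 -0.21), where 13.7% of all genes were called. With cytochalasin D present 3 were called higher with apoptotic cells, beside 8.61% of all genes called in either direction, Sgk1, Trpm7 and Slc12a2 (log2 0.42, 0.28 and 0.33), the last losing its call without cytochalasin D replicate 1 (adjusted p = 0.144) or any 1 of 5 other libraries. Between both treatments and apoptotic cells alone 6 were higher and 6 lower, where 32.5% of all genes were called. Slc12a2 was among the lower ones (log2 -0.27, adjusted p = 0.0386 in edgeR). Of the 19, 4 had a called difference between both effects of apoptotic cells (4.56% of all genes did), 2 higher and 2 lower, among them Sgk1 (log2 -1.02, adjusted p = 1.26e-06 in edgeR) and Aqp1 (log2 -0.63, adjusted p = 2.38e-05), with 0 to 4 higher and 2 to 3 lower in the alternatives run. In deficient cells 5 were higher and 5 lower, where 42.5% of all genes were called (median 0.058), the targeted gene Slc12a2 being one of those lower, with Sgk1 (log2 -1.85) and Myadm (log2 -0.32) lower and Aqp1 higher (log2 0.89).

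Genes for the organic osmolytes that the channel releases were tested as 9 genes, of which 1 rose and 4 fell with cytochalasin D, where 26.3% of all genes were called (median log2 -0.15; 0 to 1 and 3 to 4 in the alternatives run). Slc6a6, the taurine transporter gene, fell 1.504-fold from 372.7 to 247.8 CPM (adjusted p = 1.25e-11 in edgeR), and Isyna1, the gene of inositol synthesis, fell 1.26-fold. With apoptotic cells alone 1 gene fell, Nfat5, the transcription factor gene of the response to hypertonic medium (log2 -0.36), and with cytochalasin D present 1 gene rose, Gpcpd1 (log2 0.56), in comparisons where 13.7% and 8.61% of all genes were called. Between both treatments and apoptotic cells alone 2 were higher and 3 lower, where 32.5% of all genes were called, and in the alternatives run 0 to 2 were higher and 2 to 4 lower. Impa1 (log2 0.28) lost its call without replicate 1 or 3 of apoptotic cells or replicate 3 or 4 of both treatments (adjusted p from 0.0638 to 0.0881), and Gde1 (log2 -0.28) without replicate 3 of either group (0.0590 and 0.0552). In deficient cells 2 were higher and 3 lower, where 42.5% of all genes were called, with Isyna1 at log2 0.35, Pnpla6 at -0.32 and Slc6a6 at -0.23.

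Of 8 genes tested of cyclic GMP-AMP signalling, which uses a molecule that LRRC8 channels can pass, 4 fell with cytochalasin D and none rose, where 26.3% of all genes were called (median log2 -0.14), and 2 to 4 fell in the alternatives run. Slc19a1, a carrier gene for reduced folate and cyclic dinucleotides, was lower by log2 -0.56 (adjusted p = 2.25e-07 in edgeR) and Samhd1, of nucleotide metabolism, by -0.23. Mb21d1, the gene of the synthase, and Enpp1, the gene of the extracellular hydrolase, were at log2 -0.44 and -0.26, and both calls were lost without control replicate 1 (adjusted p = 0.0526 and 0.0966), that of Enpp1 also without cytochalasin D replicate 1 or 4 (0.0606 and 0.0704). With apoptotic cells alone Slc19a1 was called higher (log2 0.20; 13.7% of all genes were called), a call lost without control replicate 1 (adjusted p = 0.107), control replicate 2 or replicate 3 or 4 of apoptotic cells. With cytochalasin D present Trex1 was called lower (log2 -0.49; 8.61% of all genes were called), a call lost without any 1 of 6 libraries, such as replicate 4 of both treatments (adjusted p = 0.114). Between both treatments and apoptotic cells alone 3 were lower and none higher, where 32.5% of all genes were called. In deficient cells 4 of 9 were lower and 1 higher, where 42.5% of all genes were called (median -0.22), and in the alternatives run 2 to 4 were lower and 1 to 2 higher. The lower call of Enpp1 (log2 -0.17) was lost without deficient replicate 15 (adjusted p = 0.0632). Tmem173, the gene of the receptor STING, was at 1.10 ± 0.149 CPM in wildtype and 0.0409 ± 0.0603 CPM in deficient libraries (SD, n = 4). It is among the 4 lower genes but passed the filter only through the wildtype group, so its call is not a test. Irf3, a factor activated downstream of STING, was 2.10-fold lower (8.38 against 4.01 CPM), and Mb21d1 was higher (log2 0.37).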

How the data were processed

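The authors deposited raw counts of fragments by gene name. Per the file headers, featureCounts 1.5.0 counted pairs with both ends aligned by STAR over exons, without a strand option. The sources used here do not give the STAR version or the build. The submitters' processing notes also name FastQC and DESeq2. Reads were 75 bp, paired-end, from total RNA, per the labels. A row without a gene name (0.0249 to 0.0445% of counts in the first experiment, 1.1268 to 1.6519% in the second) was left out.

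Each experiment had a fit of its own in edgeR 4.0.16 (R 4.3.3), with TMM factors and its quasi-likelihood F test, group being the only term. Low counts were filtered by filterByExpr with a minimum count of 10 and a minimum total of 15. A gene was called at a Benjamini-Hochberg adjusted p under 0.05 over all genes tested. All 16 libraries of the first experiment entered its fit. TPM values use the deposited exon lengths. The tests were checked on simulated counts. Marker sums are raw counts in ppm of the library.

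The members and lists were chosen with earlier results of these data known. The lists cover the LRRC8 family, other anion channels, swelling and volume signalling, organic osmolytes, cyclic GMP-AMP, and T cell, fibroblast and myeloid markers. Named are the LRRC8 genes, Slc12a2, neighbouring genes, up to 4 genes per list and comparison with the smallest adjusted p, and, for each tested member, the 3 genes of at least 4 CPM most correlated with it over the 16 libraries (log2 CPM, prior count 2). Comparisons with a group in common (such as cytochalasin D and apoptotic cells, each against untreated cells) share libraries. Alternatives were DESeq2 1.42.0, limma-voom (limma 3.58.1), relative log expression factors, no filter, a 1 CPM filter, a robust fit, removal of the trend with gene length, an adjusted p under 0.01, a replicate block, a fit on the compared groups, and each library left out. Chosen after seeing the data were the effects averaged over both settings, a block of 2 sets of libraries in the second experiment and the removal of the 3 libraries farthest out on a principal component (PC3). Some items are not reported here.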

Additional observations from a re-analysis of the deposited data

Results flagged for a closer look

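Of 42 groups of 4 libraries examined, 1 held a library far from the other 3, where chance flags about 1 group in 20. Lrrc8e, the family gene outside the 4 described, was at 16.9 CPM in replicate 1 of the cells given apoptotic cells, beside 23.8, 24.6 and 24.01 CPM in the others. Without that library Lrrc8e would be called higher with apoptotic cells (log2 0.33, adjusted p = 0.0347 in edgeR).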

How the results depend on the processing

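In the alternatives run, the higher Lrrc8a with cytochalasin D in both comparisons and the lower Lrrc8a and Lrrc8c in deficient cells kept direction and call, with 1 library left out or under another setting. The lower Lrrc8d averaged over both settings did so too. At an adjusted p under 0.01, 0 genes of the 3 were called with apoptotic cells in either comparison. Without the 3 libraries that stood apart (control replicate 4, cytochalasin D replicate 1 and replicate 4 of both treatments), Lrrc8d was no longer called with apoptotic cells in the presence of cytochalasin D (log2 -0.17, adjusted p = 0.116), leaving 0 genes called, and Lrrc8c was called in the averaged cytochalasin D effect (0.15, adjusted p = 0.0254), giving 2 genes. The causes were not tested.

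Same-numbered replicates of the first experiment did not deviate together throughout (correlations -0.056 to 0.227). The highest, 0.206 and 0.227, were between cytochalasin D and both treatments, for replicates 1 and 4. PC3 rose with replicate number in both of these groups, from -29.9 to 3.9 and from -5.2 to 22. Whether same-numbered libraries share more than a number was not tested. With the replicate block, Lrrc8c was called with cytochalasin D in cells given apoptotic cells (log2 0.17, adjusted p = 0.0447), giving 2 genes. The genotype groups share no replicate numbers, but a principal component (PC2) put libraries 9 to 12 at 3.4 to 15 and libraries 13 to 16 at -18.1 to -5.4. With a replicate block of these 2 sets, chosen after seeing the data, Lrrc8a and Lrrc8c were called lower (log2 -0.42 and -0.51, adjusted p = 3.50e-05 and 2.29e-08), Lrrc8d was not (0.039, adjusted p = 0.488), and 6226 genes were called in place of 5545.

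Uncalled values near 0 changed sign. Lrrc8a with apoptotic cells in the presence of cytochalasin D was at log2 1e-04 in DESeq2, 0.0078 in limma-voom, 2e-04 with relative log expression factors, 0.0013 with the replicate block, 0.0036 on the compared groups and 0.031 without the 3 libraries, where Lrrc8c was at -0.023. With the gene length trend removed, the difference between effects was -0.030 for Lrrc8d and -0.030 for Lrrc8e, and the averaged apoptotic cell effect on Lrrc8c was 0.018. Lrrc8e had a difference between effects of -0.084 without the 3 libraries.

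With single libraries left out, apoptotic cells alone gave log2 -0.12 to 0.023 for Lrrc8a, -0.22 to -0.15 for Lrrc8d and 0.17 to 0.33 for Lrrc8e, with 0 to 1 genes of the 3 called. With cytochalasin D present they gave -0.050 to 0.061 for Lrrc8a, -0.019 to 0.090 for Lrrc8c and -0.20 to -0.17 for Lrrc8d, with 0 to 1 genes. Cytochalasin D gave -0.0088 to 0.10 for Lrrc8c, and in cells given apoptotic cells 0.13 to 0.23, with 1 to 2 genes. The difference between effects was -0.022 to 0.12 for Lrrc8a, -0.029 to 0.039 for Lrrc8d and -0.10 to 0.091 for Lrrc8e. The averaged apoptotic cell effect was -0.059 to 0.015 for Lrrc8a, -0.054 to 0.0037 for Lrrc8c and 0.20 to 0.28 for Lrrc8e. Lrrc8e, not called there (adjusted p = 0.0597), was called without control replicate 2, cytochalasin D replicate 3 or apoptotic cell replicate 1 (0.0478, 0.0277 and 0.00762), in DESeq2 (0.0465), in the robust fit (0.0491) and with the length trend removed (0.0389). The averaged cytochalasin D effect was 0.077 to 0.14 for Lrrc8c and 0.13 to 0.21 for Lrrc8e (adjusted p = 0.0664, and 0.0439 to 0.0498 without control replicate 2, cytochalasin D replicate 1 or 2 or apoptotic cell replicate 3), with 1 to 2 genes. Genotype gave -0.067 to 0.014 for Lrrc8e.

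Of all genes, those called with apoptotic cells numbered 1789 (785 at an adjusted p under 0.01, 1103 without replicate 3 of apoptotic cells), with cytochalasin D 3451 (2233 at 0.01), with apoptotic cells in its presence 1129 (532 at 0.01, 662 without the 3 libraries) and between both treatments and apoptotic cells alone 4256 (2828 at 0.01). The averaged apoptotic cell effect called 1852 (1011 at 0.01). The difference between effects called 598, against 950 in DESeq2, 928 without a filter, 132 at 0.01, 120 without the 3 libraries and 251 to 1645 with single libraries left out.

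Shares of raw counts, not divided by length, in the order untreated, cytochalasin D, apoptotic cells, both, wildtype and deficient, were 17.6, 22.2, 18.8, 23.2, 12.8 and 11.6% for Lrrc8a, 35.7, 33.6, 36.6, 36.2, 51.1 and 43.5% for Lrrc8c, and 46.7, 44.1, 44.6, 40.6, 36.1 and 44.9% for Lrrc8d.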
